A study of Mus musculus with 8 samples.

Results

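Immediate early transcription factors were followed in ribosome-bound RNA from mouse skin before and after wounding. The genes were Fos, Fosb, Fosl1, Jun, Junb, Egr1, Egr2, Atf3, Ier2 and Nr4a1, chosen by symbol, and each matched 1 row of the count table, so they are 10 of 53700 gene rows. Of these, 9 passed the filter on low counts that left 18656 genes for testing, and Fosl1 did not. All mice carried AdipoqCreER, a tamoxifen-inducible Cre recombinase driven by the adiponectin promoter, and R26-NuTRAP, a reporter at the Rosa26 locus that tags ribosomes with GFP once Cre has acted. All mice received tamoxifen, were 7 to 9 weeks old, and gave RNA that an anti-GFP antibody pulled down with tagged polysomes. The groups were uninjured skin (n = 3), skin 3 days after wounding (n = 2) and skin 7 days after wounding (n = 3). The titles abbreviate the wounded groups as PW3d and PW7d, taken here to mean days after wounding. Wounded mice had 4 full-thickness wounds made with a 5 mm punch during telogen, the resting phase of the hair cycle. No label says whether replicates came from separate mice or from pools, so p-values measure the spread between these libraries.

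Immediate early genes are transcribed within minutes of a stimulus without new protein synthesis, because the factors that switch them on (serum response factor with its ternary complex partners, and CREB) are already present. Fos and Jun proteins pair to form AP-1, a transcription factor that drives proteases, cytokines and other genes of injured tissue. EGR proteins are zinc finger factors and NR4A proteins are nuclear receptors that act without a known natural hormone. Their transcripts are short-lived, and they are also known to rise when tissue is cut or digested.

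Libraries held 5308959 to 17751689 counts, and 3 counts, taken as the limit of detection, equalled 0.184 to 0.617 CPM (read counts scaled to a common library total and normalised between libraries). The adipocyte markers, which match the labelled cell type, summed to 81914 to 102760 CPM in uninjured, 76780 to 105480 CPM in day 3 and 52059 to 110640 CPM in day 7 libraries. Markers of other cell types were also present. The 8 skeletal muscle markers summed to 4320 to 9652 CPM in uninjured, 2778 to 4688 CPM in day 3 and 734 to 1319 CPM in day 7 libraries. The 7 luminal epithelial markers summed to 11.4 to 26.2 CPM in uninjured libraries, to 1542 and 21.0 CPM in day 3 libraries 1 and 2, and to 547 to 1193 CPM at day 7. Day 3 library 1 therefore stood apart from day 3 library 2 in these markers. Values below are of the RNA recovered, in which fewer cells of a type and less RNA per cell cannot be told apart. Column names carried a leading number that was the same within a group and differed between groups, so whatever it marks cannot be told apart from the group.

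Promoter sequence from RefSeq (GRCm38.p6) was searched for 7 of the 10 genes. It is shown for 4 of them, picked because they behaved differently in the counts. A link between motifs and counts was not tested. Fos rose at day 7, and Egr2 was high in 2 of 3 day 7 libraries. Jun was highest at day 7 without passing the test. Of the tested genes, Nr4a1 differed most between replicates in uninjured and in day 3 libraries. Capitals in Fos mark TGACG, the core of the cAMP response element bound by CREB and ATF factors, and TATAAA, the TATA box. Capitals in Nr4a1 mark CGTCA, which is TGACG read on the other strand, and between the CGTCA strings an EGR site, also on the other strand. Those in Egr2 mark a CArG box, the site of serum response factor, and CGTCA. Jun has no capitals because none of the motifs searched lay in its window. Each of the first 3 is the 150 bases before the annotated start, 5′ to 3′ on the gene's strand. Fos lies at chr12:85473740-85473889 (plus strand), Jun at chr4:95052223-95052372 (minus strand) and Nr4a1 at chr15:101266696-101266845 (plus strand). Egr2 is shown for 30 bases, 80 to 51 before 1 of its annotated starts, at chr10:67537789-67537818 (plus strand).
Fos: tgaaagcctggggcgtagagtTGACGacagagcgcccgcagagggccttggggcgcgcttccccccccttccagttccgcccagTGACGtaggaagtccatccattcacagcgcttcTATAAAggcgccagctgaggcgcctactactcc
Jun: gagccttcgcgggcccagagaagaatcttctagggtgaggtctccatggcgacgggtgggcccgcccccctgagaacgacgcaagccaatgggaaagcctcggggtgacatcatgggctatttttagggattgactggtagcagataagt
Nr4a1: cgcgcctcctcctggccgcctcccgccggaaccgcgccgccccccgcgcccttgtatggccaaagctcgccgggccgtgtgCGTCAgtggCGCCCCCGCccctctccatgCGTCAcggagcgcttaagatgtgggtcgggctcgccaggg
Egr2: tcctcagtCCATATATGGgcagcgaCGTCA

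The 250 bases before each start were searched on both strands. Fosl1, Egr1 and Ier2 were not searched, so the counts below say nothing of motifs in them. TGACG was found in 6 of the 7 genes (Atf3, Egr2, Fos, Fosb, Junb and Nr4a1, and not Jun), in at least 1 window each. Some genes have several annotated starts, and counted by window it was in 8 of their 11 windows, against 17.8% of the 32851 promoter windows of the table. The Egr2 window at chr10:67537316-67537615 has a CArG box of its own and overlaps no other Egr2 window with a match. The other Egr2 windows with a match overlap one another, so their TGACG strings and their CArG box are counted repeatedly. Counts by window are therefore not of independent sites. The whole element TGACGTCA, which contains TGACG, was found in none of the 11 windows and in 1.55% of all windows. The AP-1 site TGANTCA, where N is any base, was likewise found in none of the 11 and in 6.75% of all windows. A CArG box was found in 4 of the 11 (all of Egr2) and in 1.47% of all windows, TATAAA in 1 (Fos) and in 12.4%, and the EGR site GCGNGGGCG in 2 (Fosb and Nr4a1) and in 4.7%. A match is a string of letters, not a measured binding site. An absent match says only that the letters are not in this window.

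Fos was higher in every wounded library than in any uninjured one, and at day 7 it was the 1 immediate early gene that passed the test. Spread between replicates differed from gene to gene, and Fos itself was widely spread. In uninjured skin the SD was 57.4% of the mean for Fos and 24.4% for Ier2. Calls were made with edgeR's quasi-likelihood test at a Benjamini-Hochberg adjusted p under 0.05 over all genes tested. Compared with uninjured skin, 1 of the 9 tested genes (Fos) rose at day 7 and none fell, where 5.9% of all genes rose and 1.77% fell, or 7.67% in all. The unadjusted p was under 0.05 in 5 of the 9 (Fos, Fosb, Jun, Egr1 and Egr2), against 26.7% of all genes. Day 3 gave no call among the 9, against 0.0107% of all genes, and all of those rose. There the unadjusted p was under 0.05 in 2 (Fos and Fosb), against 13% of all genes. DESeq2 called 1 (Fos), against 429 genes over the whole table. Nor was any of the 9 called between day 7 and day 3, where edgeR called 0.0858% of all genes (0.0643% higher and 0.0214% lower at day 7). The unadjusted p was under 0.05 in 2 there (Jun and Egr2), against 11%, and DESeq2 called none, against 235 genes over the whole table. Of the 10 genes, 2 (Fos and Fosb) had every day 7 library above every uninjured one, against 16.7% of genes tested, and the same 2 did so at day 3, against 16.9%. Day 7 libraries lay wholly above day 3 libraries in 2 (Jun and Fosl1), against 14.2%. None of the 10 lay wholly lower at day 7 or day 3 than in uninjured skin, where 13.5% and 17.2% of genes tested did, or lower at day 7 than at day 3, where 11.4% did. The shares of members lying wholly higher were thus near those of all genes, and the shares lying wholly lower were below them. Fosl1 counts among the 10 but was not among the genes tested. The median log2 difference of the 9 was 0.83 at day 7 against uninjured skin, beside 0.04 over all genes tested. It was 0.25 at day 3 against uninjured skin, beside 0.02, and 0.22 at day 7 against day 3, beside 0.08. Both comparisons with uninjured skin share the uninjured libraries.

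**Figure D1:**
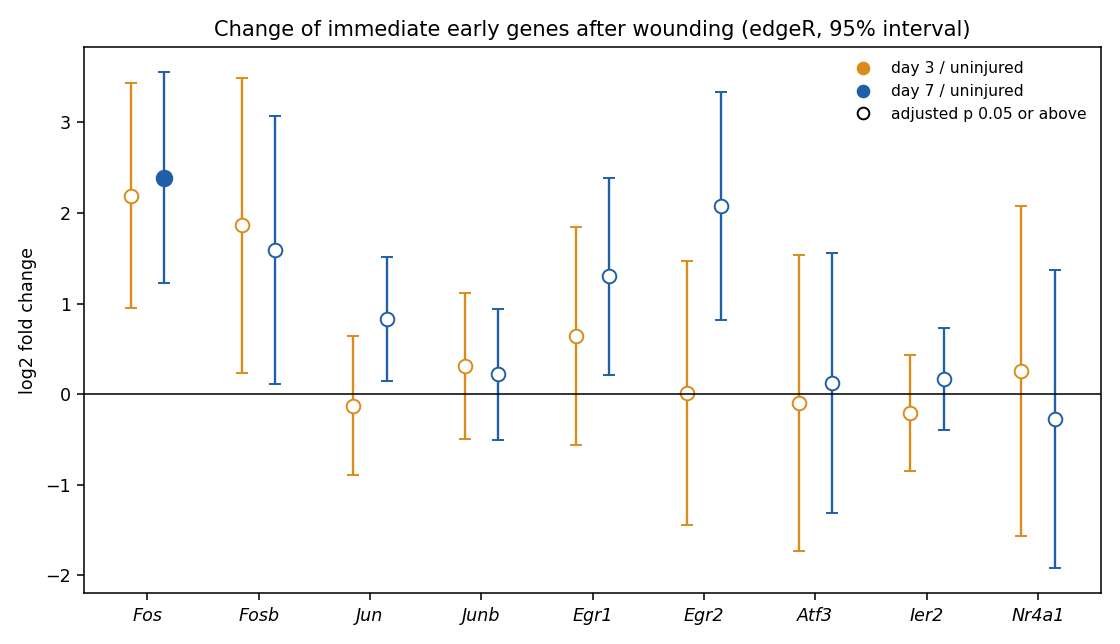
Log2 fold changes (y axis) of the 9 tested genes with 95% intervals for day 3 over uninjured and day 7 over uninjured, where filled points passed the test at an adjusted p under 0.05 and open points did not. Fos at day 7, at 2.39, is the 1 filled point, and the interval of Nr4a1 at day 7, -1.92 to 1.37, spans 0.

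Among the FOS proteins, which pair with JUN proteins to form AP-1, Fos was higher after wounding in every library. The Fos gene (ENSMUSG00000021250.14) lies on the plus strand of chromosome 12, from 85520664 to 85524047 in the deposited table, and its counts sum over exons. Fos stood at 9.03, 2.20 and 7.37 CPM in uninjured libraries 1 to 3, at 36.4 and 19.4 CPM in day 3 libraries, and at 50.5, 26.5 and 18.4 CPM in day 7 libraries. The lowest wounded library was 18.4 CPM and the highest uninjured library 9.03 CPM, so the groups did not overlap at either time. Fos averaged 31.8 ± 16.7 CPM at day 7 and 6.20 ± 3.56 CPM in uninjured skin (SD, n = 3 each), a 5.25-fold rise (95% interval 2.34 to 11.8; log2 fold change 2.39 ± 0.53 SE; adjusted p = 0.0233, edgeR). The call was lost when day 7 library 1 or 2 or any 1 uninjured library was left out, with log2 fold changes of 1.88 to 2.77 and adjusted p-values of 0.0502 to 0.0990 by the same edgeR test. At day 3 Fos averaged 27.9 ± 12.1 CPM (n = 2), 4.57-fold over uninjured skin (95% interval 1.93 to 10.8), and this did not pass the edgeR test (adjusted p = 0.190). DESeq2, run as an alternative, gave an adjusted p of 0.0107 for that comparison. Between day 7 and day 3 the log2 difference of Fos was 0.20, with a 95% interval of -1.02 to 1.42.

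Fosb, a close relative of Fos, was low throughout. It stood at 0.366, 0.429 and 1.44 CPM in uninjured libraries, 3.50 and 1.82 CPM at day 3, and 1.58, 3.08 and 1.80 CPM at day 7. As with Fos, neither wounded group overlapped the uninjured one, but the lowest day 7 value and the highest uninjured value lay close together. The edgeR test was not passed at day 7 (log2 difference 1.59, 95% interval 0.11 to 3.08, adjusted p = 0.160) or at day 3 (log2 difference 1.86, adjusted p = 0.328). Fosl1, which encodes FRA-1, a FOS protein of migrating wound-edge keratinocytes, was near the limit of detection. It had 7, 2 and 2 counts in uninjured libraries, 0 and 3 at day 3, and 6, 8 and 4 at day 7, or 32 in all, and was not tested. A difference in Fosl1 was not detectable at this depth.

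**Figure D2:**
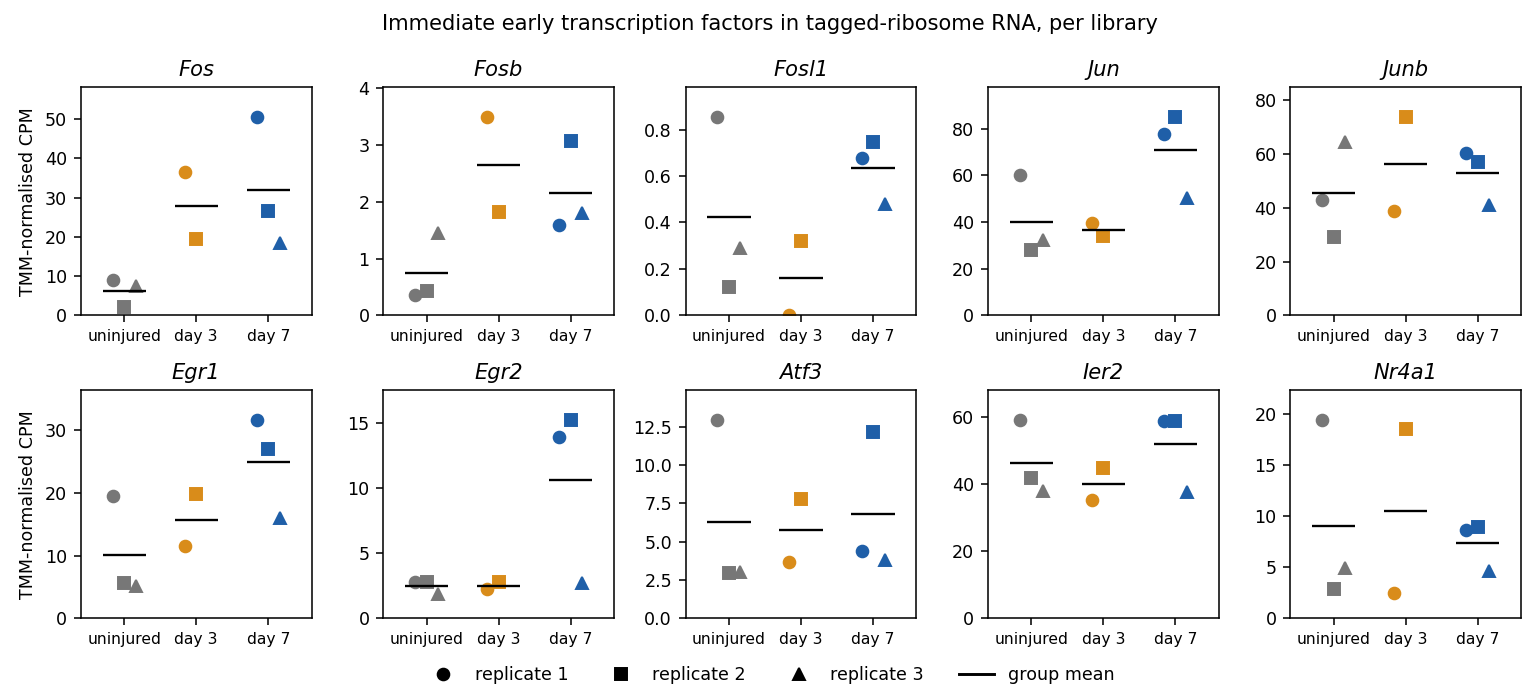
TMM-normalised CPM (linear y axis from 0, scaled per gene) of each of the 10 genes in uninjured, day 3 and day 7 libraries, 1 point per library with its replicate number as the shape, and the group mean as a line. In Fos and Fosb all 5 wounded libraries lie above the 3 uninjured ones, while in Junb, Ier2, Atf3 and Nr4a1 the groups overlap.

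Per transcript length, Jun and Junb were above Fos, Fosb and Fosl1 in uninjured skin, without overlap between libraries. Jun, the main partner of Fos, stood at 60.0, 27.9 and 32.5 CPM in uninjured, 39.7 and 33.9 CPM in day 3 and 77.8, 85.0 and 50.4 CPM in day 7 libraries. Every day 7 library was above both day 3 libraries, and day 7 library 3 was below uninjured library 1. Jun averaged 71.1 ± 18.2 CPM at day 7, against 40.1 ± 17.4 CPM in uninjured skin (SD, n = 3 each), which did not pass the edgeR test (log2 difference 0.83, 95% interval 0.14 to 1.51, adjusted p = 0.122). Leaving out each library in turn gave log2 differences of 0.62 to 1.22 and edgeR adjusted p-values of 0.0419 (without day 7 library 3, the 1 setting of these 8 that passed) to 0.330. Between day 7 and day 3 the log2 difference was 0.95, with an adjusted p of 0.404 in edgeR. Junb, a JUN protein that weakens the action of Jun in many settings, stood at 42.8, 29.2 and 64.6 CPM in uninjured, 38.7 and 73.8 CPM in day 3 and 60.6, 57.0 and 41.0 CPM in day 7 libraries. These ranges overlapped in every comparison, and the 95% interval of the log2 difference between day 7 and uninjured skin was -0.50 to 0.94.

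Dividing CPM by transcript length (RPKM) allows genes to be set against each other. Fosl2 and Jund were added so that both families were complete, giving Fos, Fosb, Fosl1, Fosl2, Jun, Junb and Jund. The 4 FOS genes held 4.62 to 6.45% of the summed RPKM of the 7 in uninjured libraries, 11.8 and 18.0% in day 3 libraries and 9.72 to 18.3% in day 7 libraries. Fos alone held 1.01 to 3.01% in uninjured, 8.15 and 15.1% in day 3 and 6.50 to 13.9% in day 7 libraries. Jund, whose transcript is present in resting cells, was the largest of the 7 in every library, at 45.9 to 72.9%. The FOS share of every wounded library was thus above that of every uninjured library, while the JUN genes supplied most of the transcript at each time. These shares are a description and were not tested. Jund averaged 133 ± 12.6 CPM at day 7 and 137 ± 56.2 CPM in uninjured skin (SD, n = 3 each). Fosl2 averaged 46.8 ± 14.4 CPM at day 7 and 32.0 ± 0.832 CPM in uninjured skin (SD, n = 3 each; adjusted p = 0.198, edgeR).

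**Figure D3:**
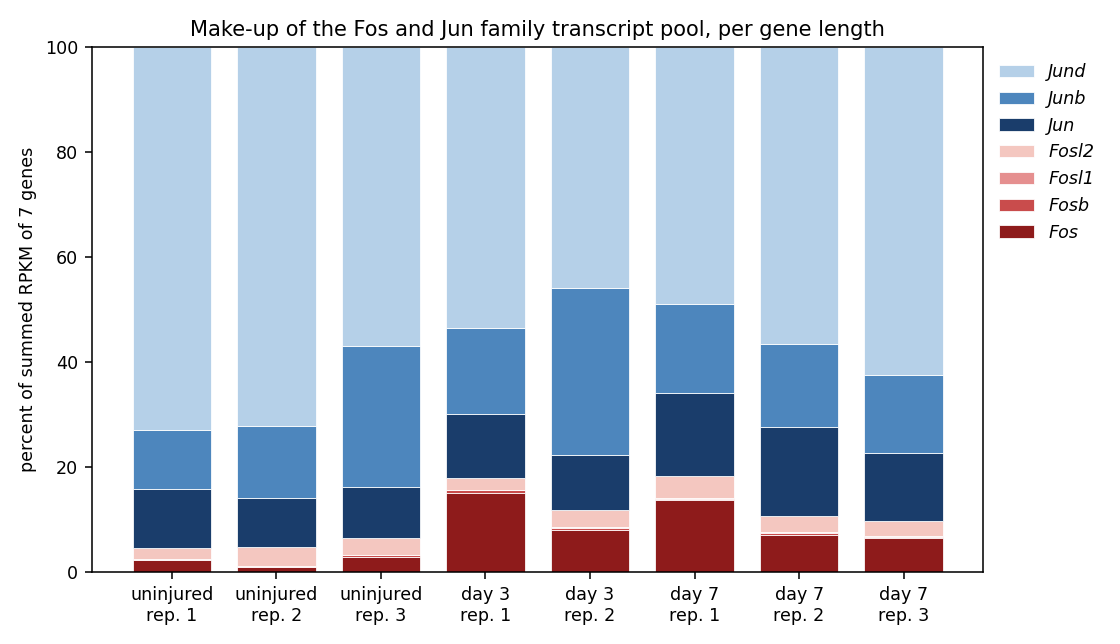
Share (percent) of each of the 7 FOS and JUN genes in their summed RPKM, as 1 stacked bar per library in the order uninjured, day 3 and day 7. The FOS genes fill 4.62 to 6.45% of uninjured bars and 9.72 to 18.3% of the bars of wounded skin, and Jund is the largest part of each bar.

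The EGR genes, zinc finger factors induced through serum response factor, were highest at day 7 without passing the test. Egr1 stood at 19.5, 5.70 and 5.20 CPM in uninjured, 11.5 and 19.8 CPM in day 3 and 31.6, 27.1 and 16.1 CPM in day 7 libraries. Day 7 libraries 1 and 2 were above every uninjured library, and day 7 library 3 was below uninjured library 1. Egr1 averaged 24.9 ± 7.99 CPM at day 7 and 10.1 ± 8.13 CPM in uninjured skin (SD, n = 3 each; log2 difference 1.30, 95% interval 0.22 to 2.39; adjusted p = 0.125, edgeR). Leaving out each library in turn gave log2 differences of 1.00 to 2.17 and edgeR adjusted p-values of 0.0342 (without uninjured library 1, the 1 setting of these 8 that passed) to 0.370.

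Egr2, also known for its part in myelin-forming Schwann cells and in the early steps of fat cell differentiation, stood at 2.81, 2.82 and 1.88 CPM in uninjured, 2.26 and 2.78 CPM in day 3 and 13.9, 15.2 and 2.75 CPM in day 7 libraries. Day 7 libraries 1 and 2 were thus several times above all others, and day 7 library 3 lay within the uninjured range. Egr2 averaged 10.6 ± 6.85 CPM at day 7 and 2.50 ± 0.539 CPM in uninjured skin (SD, n = 3 each). The log2 difference of 2.07 (95% interval 0.81 to 3.33) lay just outside the threshold in edgeR (adjusted p = 0.0507). Its adjusted p was 0.0477 with upper-quartile scaling, 0.0496 with a minimum count of 30 and 0.00656 in DESeq2, and 0.0541 when only both groups compared were fitted. Leaving out each library in turn gave edgeR adjusted p-values of 0.00366 (without day 7 library 3, the 1 setting of these 8 that passed) to 0.190 (without day 7 library 2). Between day 3 and uninjured skin Egr2 had a log2 difference of 0.01, with a 95% interval of -1.44 to 1.47.

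Atf3, a stress-induced partner of JUN proteins that often represses, stood at 12.9, 2.94 and 3.03 CPM in uninjured, 3.70 and 7.80 CPM in day 3 and 4.42, 12.1 and 3.83 CPM in day 7 libraries. One library was far above the rest of its group both in uninjured skin and at day 7. Its log2 difference between day 7 and uninjured skin had a 95% interval of -1.31 to 1.56. Nr4a1, the nuclear receptor also called NUR77, stood at 19.4, 2.88 and 4.91 CPM in uninjured, 2.47 and 18.5 CPM in day 3 and 8.60, 8.96 and 4.67 CPM in day 7 libraries. Here too the highest values were single libraries, 1 uninjured and 1 at day 3. Its log2 difference between day 7 and uninjured skin was -0.28 (95% interval -1.92 to 1.37), an interval that spans 2-fold changes in both directions. Ier2, a nuclear protein of the early growth response, had the narrowest range over the 8 libraries of the tested genes, at 59.0, 41.7 and 37.8 CPM in uninjured, 35.2 and 44.9 CPM in day 3 and 58.9, 58.9 and 37.7 CPM in day 7 libraries. Its 95% interval for the log2 difference between day 7 and uninjured skin was the narrowest of the 9 genes, at -0.40 to 0.73.

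Ordered by mean RPKM in uninjured skin, the level of Ier2 was 30.3 ± 7.41, of Junb 19.8 ± 7.76 and of Jun 12.6 ± 5.45 (SD, n = 3 each), and neighbours among these 3 overlapped. Atf3, Fos, Nr4a1 and Egr1 followed at mean RPKM of 2.93, 2.64, 2.58 and 2.26, and their libraries overlapped one another and lay below every value of Jun. Egr2 came next at a mean RPKM of 0.736, and Fosl1 and Fosb were lowest at 0.207 and 0.120. At day 7 Ier2 still had the highest mean RPKM, at 34.0 ± 8.01, followed by Junb at 23.0 ± 4.54, Jun at 22.3 ± 5.72 and Fos at 13.5 ± 7.09 (SD, n = 3 each). Fos thus followed the 3 most abundant genes, with a range of 7.84 to 21.5 RPKM that overlapped the 15.8 to 26.7 RPKM of Jun.

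Replicates of a group differed widely in these genes. The libraries singled out below were picked after their values were seen, and no test was made. Uninjured library 1 was the highest of its group in 7 of the 10 genes, against 28.5% of all genes tested. Its level over the mean of uninjured libraries 2 and 3 was 4.98-fold for Nr4a1, 4.33-fold for Atf3, 3.58-fold for Egr1 and 1.89-fold for Fos, and 0.391-fold for Fosb. The ratio was over 2 in 4 of the 10 genes, against 5.01% of all genes tested, and its median was 1.94 over the 10 and 0.977 over all. At day 3, library 2 was above library 1 in 7 of 10 genes, against 51.7% of all genes, by 7.50-fold for Nr4a1 and 2.11-fold for Atf3. Fos and Fosb went the other way between these libraries, at 0.532 and 0.520 of library 1.

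Day 7 library 3 was the lowest of its group in 9 of the 10 genes, against 43.3% of all genes tested, and was below the mean of day 7 libraries 1 and 2 in all 10. The ratio ran from 0.189 for Egr2 to 0.770 for Fosb, with a median of 0.584 beside 0.936 over all genes. The same library had the highest adipocyte marker sum at day 7 (110640 CPM, against 52059 and 61609 CPM in libraries 1 and 2). It had the lowest endothelial sum (123, against 465 and 409 CPM), the lowest macrophage sum (406, against 541 and 866 CPM) and the lowest fibroblast sum (4074, against 5698 and 7839 CPM). Within day 7, the immediate early genes were therefore low in the library with most adipocyte and least endothelial, macrophage and fibroblast transcript. The part of these cell types in the result was not tested.

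**Figure D4:**
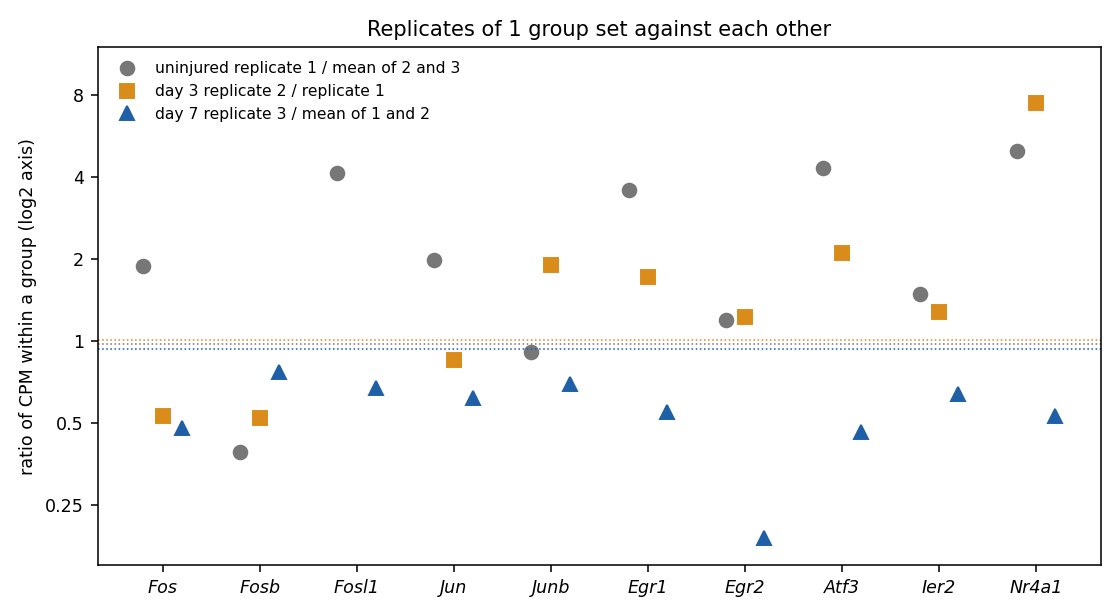
Ratio (y axis, log2 scale) of 1 library to its fellow replicates for each of the 10 genes: uninjured library 1 over the mean of 2 and 3, day 3 library 2 over library 1, and day 7 library 3 over the mean of 1 and 2, with dotted lines at the median over all genes tested. All 10 points lie below 1 at day 7, while Nr4a1 reaches 4.98 in uninjured and 7.50 in day 3 libraries, and Fosl1 has no day 3 ratio because library 1 had 0 counts.

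The markers of other cell types also differed between the groups in which Fos was called. All 7 luminal epithelial markers rose at day 7 against uninjured skin, among them Csn3, a milk casein gene without a count in any uninjured library. In the same comparison 6 of 8 endothelial, 4 of 8 macrophage and monocyte and 4 of 7 fibroblast markers rose, and all 8 skeletal muscle markers fell. Over all genes tested, 5.9% rose and 1.77% fell. Endothelial sums were 71.6 to 163 CPM in uninjured, 229 and 245 CPM in day 3 and 123 to 465 CPM in day 7 libraries. Fibroblast sums were 845 to 1482 CPM in uninjured, 1055 and 2509 CPM in day 3 and 4074 to 7839 CPM in day 7 libraries. Macrophage sums were 97.5 to 208 CPM in uninjured, 211 and 733 CPM in day 3 and 406 to 866 CPM in day 7 libraries. At day 3, Fos was higher in library 1 (36.4 CPM) than in library 2 (19.4 CPM). So were the luminal epithelial sum and the adipocyte sum (105480 against 76780 CPM), and the sums of pericyte and vascular smooth muscle and of Schwann cell markers. The endothelial, fibroblast, keratinocyte, macrophage, mast cell, neutrophil, skeletal muscle and T, B and NK cell sums were higher in library 2. The part of any of these cell types in the level of Fos was not tested.

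Around these genes, 11 further lists held 117 tested genes: relatives, co-regulators, upstream and feedback factors, other primary response genes, heat shock and tissue handling genes, integrated stress response genes and AP-1 targets. Of these, 16 rose and 1 fell at day 7 against uninjured skin, against 5.9% and 1.77% of all genes. AP-1 targets made up 7 of the 16. An unadjusted p under 0.05 was found in 34.2% (40), against 26.7%. The lists were chosen with earlier results of these data known, so these shares are a description. At day 3 edgeR called none, against 0.0107% of all genes, with an unadjusted p under 0.05 in 18.8% (22), against 13%. DESeq2 called 7 there, against 429 genes over the whole table. Among 8 other AP-1 genes, 1 rose at day 7. It was Batf, a partner of JUN proteins best known in lymphocytes, at 2.83, 3.83 and 1.80 CPM at day 7, against 0, 0.122 and 0.289 CPM in uninjured skin (adjusted p = 0.0114, edgeR). Day 3 libraries already had 2.26 and 2.89 CPM.

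Of the other EGR and NR4A genes, 2 of 4 were tested, and of their co-regulators 2 of 2. At day 7 edgeR called none of them, against 7.67% of all genes, and DESeq2 called none, against 2501 genes over the whole table. None had an unadjusted p under 0.05, against 26.7% of all genes. Egr3 and Nab2 are given here as relatives picked after their values were seen. Egr3, which is induced alongside Egr1, stood at 34.1, 4.95 and 5.15 CPM at day 7, against 8.17, 11.1 and 2.02 CPM in uninjured skin. Nab2, a corepressor that EGR factors induce and that restrains them, stood at 24.0, 13.1 and 5.99 CPM at day 7, against 8.90, 6.68 and 2.02 CPM in uninjured skin. For both, day 7 library 1 was the highest of all and the groups overlapped.

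Upstream of the immediate early genes, 1 of 11 factors of the serum response and cAMP routes rose at day 7, against 5.9% of all genes. It was Elk3, an ETS factor that joins serum response factor at target promoters and is prominent in endothelial cells. Elk3 stood at 30.2, 41.7 and 15.8 CPM at day 7, against 3.90, 7.53 and 4.04 CPM in uninjured skin (5.57-fold, adjusted p = 0.00958, edgeR). None of 10 MAP kinases and none of 12 feedback phosphatases and inhibitors of their route was called by edgeR, against 7.67% of all genes. DESeq2 called none of them either, against 2501 genes over the whole table. The unadjusted p was under 0.05 in 3 of the MAP kinases and 2 of the feedback genes, against 26.7% of all genes. In the feedback list, uninjured library 1 was the highest of its group in 9 of 12 genes, with a median ratio of 1.88 to libraries 2 and 3, as it was for the immediate early genes. Dusp1, the phosphatase that switches off MAP kinases, stood at 52.3, 12.8 and 17.8 CPM in those 3 libraries.

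Other primary response genes are induced by the same routes but mostly encode proteins other than transcription factors. Of 22 tested, 4 rose and none fell at day 7, against 5.9% and 1.77% of all genes. Plk2, a kinase of the cell cycle and of stress responses, stood at 121, 122 and 42.3 CPM at day 7, against 5.49, 5.02 and 5.49 CPM in uninjured skin (17.9-fold, adjusted p = 0.00119, edgeR). Day 3 libraries lay between, at 56.3 and 27.4 CPM. Gadd45g, a growth arrest gene, rose 2.51-fold (adjusted p = 0.0159, edgeR), Phlda1, an early response gene of growth factor signalling, 3.70-fold (0.0182), and Sik1, a kinase induced by cAMP, 2.99-fold (0.0292). Of 18 other primary response transcription factors, 1 rose and 1 fell at day 7, against the same shares of all genes. Hes1, a repressor downstream of Notch, averaged 40.2 ± 23.9 CPM at day 7 and 9.86 ± 2.52 CPM in uninjured skin (SD, n = 3 each; 4.05-fold, adjusted p = 0.0190, edgeR). Id3, an inhibitor of basic helix-loop-helix factors, averaged 213 ± 38.2 CPM at day 7 and 408 ± 29.9 CPM in uninjured skin (SD, n = 3 each; log2 fold change -0.94, adjusted p = 0.0399, edgeR).

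Genes that respond to heat and tissue handling were listed because they often accompany immediate early genes in dissected tissue. Of 12 tested, 1 rose at day 7, against 5.9% of all genes. This was Hspa1b, an inducible HSP70 gene, at 46.1, 44.1 and 33.3 CPM at day 7, against 9.39, 6.31 and 5.63 CPM in uninjured skin (adjusted p = 0.0167, edgeR). Its near-identical copy Hspa1a stood at 9.17, 12.5 and 8.62 CPM at day 7, against 3.29, 3.74 and 4.33 CPM in uninjured skin (adjusted p = 0.0718, edgeR), and the division of reads between these copies is uncertain. At day 3, Hspa1b was at 54.5 and 9.84 CPM in libraries 1 and 2, the same order as Fos. However, 7 of the 10 immediate early genes were higher in library 2. Of the 12 heat and handling genes, 8 were higher in library 1, and their median ratio of library 2 to library 1 was 0.905. A link between these genes and Fos was not tested. Within uninjured skin the median ratio of library 1 to libraries 2 and 3 was 1.02 over the 12 genes. Of 7 integrated stress response genes, the ATF4 pathway to which Atf3 also belongs, 1 rose at day 7, against 5.9% of all genes. Ddit4, an inhibitor of mTORC1, stood at 15.7, 13.7 and 3.83 CPM at day 7, against 1.22, 2.76 and 1.59 CPM in uninjured skin (adjusted p = 0.0232, edgeR).

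The last list held genes known as AP-1 targets in wounds. Of 13 tested, 7 rose at day 7 against uninjured skin, against 5.9% of all genes. The median log2 difference of the 13 was 2.78, beside 0.04 over all genes tested. This list was chosen with earlier results of these data known, so its share beside all genes is a description and not a test. Spp1, the matrix protein osteopontin, stood at 59.2, 85.4 and 39.5 CPM at day 7, against 0.976, 0.674 and 0.722 CPM in uninjured skin (77.8-fold, adjusted p = 5.86e-05, edgeR). It was the 1 gene of the 11 lists that passed at day 7 against day 3 (18.1-fold, adjusted p = 0.00499, edgeR), with 2.67 and 3.96 CPM at day 3. Mmp13, a collagenase, had 83, 96 and 37 counts at day 7 and none in any uninjured or day 3 library. Mmp3, the protease stromelysin-1, rose 14.0-fold (adjusted p = 0.00232, edgeR) and Plaur, the urokinase receptor, 6.87-fold (0.00848). Timp1, Hmox1 and Areg also rose. Day 7 library 3 was the lowest of its group in 12 of these 13 genes, against 43.3% of all genes tested. It was also the lowest in 8 of 8 endothelial, 8 of 8 macrophage and monocyte and 5 of 5 tested neutrophil markers, and the part of these cell types in the levels of the 13 genes was not tested.

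The genes whose profile over the 8 libraries lay nearest to that of Fos were Cemip2, Prom2, Ets1, Ints6l and Cyb561. The measure was the root mean square difference of centred log2(CPM + 1) values, which was 0.45 for Cemip2 and 0.57 for Cyb561, over 9331 genes compared. Nearest to Egr1 were Mast4, Cnn2, Trim47, Dusp1 and Akap8, at 0.34 to 0.37. Nearest to Atf3 were Plpp1, Cdh13, Serpinb1a, Dnajb5 and Man1c1, at 0.40 to 0.45, over 9332 genes. Only genes with a mean of at least 10 CPM over the 8 libraries were compared. Fosb, Fosl1, Egr2, Atf3 and Nr4a1 lay below that mean and could not appear among the nearest. Of Fos, Jun, Junb, Egr1 and Ier2, which could appear, none was among the nearest 5 of another of the genes above.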

How the data were processed

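The authors deposited unnormalised counts of reads per gene for 8 libraries, produced by featureCounts 2.0.8 (stated per the file headers). The submitters' processing notes also name STAR 2.7.10b, DESeq2 and mm10. Strand and multi-mapping settings are not given in the labels or headers used here, so overlapping, antisense and near-identical genes are uncertain. Gene starts of the deposited table equalled those of RefSeq GRCm38.p6 for 0 of the 10 genes. Gene coordinates are printed as deposited with the build unsettled, and sequences are RefSeq's. Symbols were matched for 52093 of 53700 rows.

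TMM normalisation (trimmed mean of M values) and a filter at a minimum count of 10 were applied with edgeR 4.0.16 in R 4.3.3. All 8 libraries entered 1 fit with a mean for each group, leaving 5 residual degrees of freedom. The quasi-likelihood test was two-sided for each of 3 contrasts, adjusted by Benjamini-Hochberg over 18656 genes. The 95% intervals are unadjusted and come from the same fit. RPKM is CPM per kilobase of the deposited gene length. The procedure was tested on simulated data. Over all runs, 200 genes per comparison and fold were changed, among 16709 to 16741 genes tested on average. This is a smaller share than the 7.67% edgeR called at day 7 against uninjured skin, and genes as low as Fosb were not changed. The recovery need not hold for that comparison or for such genes. Of 2-fold changes it recovered 4% at day 3 and 11% at day 7 against uninjured skin, and 8% at day 7 against day 3. Of 4-fold changes it recovered 63%, 68.5% and 66.5% in the same order. In the same runs and order it called 11, 16 and 14 unchanged genes. Beside these it called 8, 22 and 16 genes changed 2-fold and 126, 137 and 133 changed 4-fold. The share of false calls was thus above the 0.05 aimed at in each comparison. A difference that did not pass may thus be a missed change, and one that passed may be a false call. Intervals and the limit of 3 counts cover no more than the spread or counting error they are made from.

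The genes and lists were chosen with earlier results of these data known. Named are all 10 genes, the 4 most significant genes of each list or all that passed where these were 5 or fewer, and the 5 genes most alike to Fos, Egr1 and Atf3. Timp1, Hmox1, Areg, Jund, Fosl2, Egr3, Nab2, Dusp1 and Hspa1a were named after their values were seen. Replicates of each group differed by more than counting noise. Alternatives were DESeq2 (version 1.42.0), its size factors, upper-quartile scaling, no filter, a minimum count of 30, fits of only the groups compared, a replicate block and leaving out each library. No library was left out of the main results.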

Additional observations from a re-analysis of the deposited data

How the results depend on the processing

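Genes called at day 3 against uninjured numbered 2, against 926 with no filter, 0 at a minimum count of 30, 429 in DESeq2, 0 with only the groups compared, 7 with the replicate block, and 0 to 150 when libraries were left out in turn. The count for day 7 against uninjured was 1431, against 3156 with no filter, 2501 in DESeq2 and 314 to 4055 with libraries left out. For day 7 against day 3 it was 16, against 26 with upper-quartile scaling, 572 with no filter, 235 in DESeq2, 126 with the replicate block and 5 to 34 with libraries left out. Of the immediate early genes, day 3 against uninjured gave 1 call (Fos) with no filter and 1 in DESeq2. Day 7 against uninjured gave 1 (Fos), against 2 (with Egr2) with upper-quartile scaling, at a minimum count of 30, in DESeq2 and with the replicate block, 3 with no filter, and 0 to 3 with libraries left out. Day 7 against day 3 gave 1 (Egr2) with no filter.

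Directions turned for differences that had not passed. At day 3 against uninjured, with upper-quartile scaling, which moved the median of all genes to 0.1303, Jun had a log2 difference of 0.0072 and Atf3 of 0.0295, and Egr2 had -0.006 with no filter and -0.44 with the replicate block. With libraries left out in turn, the day 3 differences ran from -0.33 to 0.30 for Jun, -0.25 to 0.70 for Junb, -0.18 to 0.14 for Egr2, -0.78 to 0.98 for Atf3, -0.41 to 0.028 for Ier2 and -1.88 to 1.48 for Nr4a1. For day 7 against uninjured they ran from -0.021 to 0.56 for Junb, -0.58 to 1.17 for Atf3 and -0.71 to 0.93 for Nr4a1. For day 7 against day 3 they ran from -0.33 to 0.70 for Fos, -0.68 to 0.24 for Fosb, -0.49 to 0.46 for Junb, -0.49 to 0.89 for Atf3 and -1.33 to 1.59 for Nr4a1. The cause was not tested. Where a library was left out at day 3, the lone library was assumed to vary like the other groups.

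Same-numbered libraries correlated at -0.074 to 0.203 in their deviations, so the numbers were not taken as pairs. With 2 libraries at day 3 and few counts for Fosb and Fosl1, small differences in these genes were not detectable.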
